A study of Mus musculus with 12 samples.

Results

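The ADAM genes code for membrane-anchored proteins with a disintegrin and a metalloprotease domain. They were taken as every row whose symbol is Adam followed by a number and at most 1 letter, which found 32 of the 23235 genes of the table and left out the secreted Adamts proteases. The libraries came from sorted C57BL/6 mouse spermatocytes, in 4 groups of 3 libraries each: Rnaseh1 knock-out pachytene cells, WT pachytene cells, Rnaseh1 knock-out leptotene/zygotene (LZ) cells and WT LZ cells. Both stages belong to the prophase of meiosis I, in which LZ cells precede pachytene cells, and RNase H1 degrades RNA in RNA:DNA hybrids. The allele or driver of the knock-out and the ages of the mice are not given in the sources used here, and the labels do not say whether the replicates came from separate animals. All p-values therefore measure the spread between these libraries, which may be technical.

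Some ADAM proteins are active proteases that release growth factors, cytokines and receptors from the cell surface. Others have lost the protease activity and serve in adhesion. In the testis, many members are made by meiotic and later germ cells, and several form complexes on sperm that take part in passage through the oviduct and binding to the egg coat. These complexes depend on chaperones of the endoplasmic reticulum, such as calmegin.

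Values are FPKM (sequenced fragments normalised to transcript length and library size) scaled by the authors between libraries with spike-in RNA, so they can be compared between genes per length. Read depth is unknown, since the table holds no counts. The summed value of all genes was between 4.81e+06 and 6.70e+06 in KO-labelled pachytene libraries, between 3.32e+06 and 4.18e+06 in WT pachytene libraries, between 430372 and 512468 in KO-labelled LZ libraries and between 609831 and 885259 in WT LZ libraries. The targeted gene did not follow the label: Rnaseh1 had 77.3, 68.9 and 94.3 FPKM in KO-labelled pachytene cells, against 52.7, 51.7 and 56.8 FPKM in WT pachytene cells, and 11.02, 18.3 and 14.8 FPKM in KO-labelled LZ cells, against 16.1, 20.5 and 16.8 FPKM in WT LZ cells. Whether the deleted part lies within the counted exons is not given in the sources used here, so the groups are called KO-labelled. Log2 values of all genes correlated less between the KO-labelled LZ libraries (r of 0.923 to 0.952) than within the other groups (0.967 to 0.975), and KO-labelled LZ replicate 2 had the lowest value of its group for many of the testis ADAMs below.

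The sorted stages were checked with marker lists. The summed FPKM of 6 pachytene markers was 44663 to 71590 in KO-labelled pachytene cells, 24991 to 33407 in WT pachytene cells, 1169 to 1423 in KO-labelled LZ cells and 2087 to 3142 in WT LZ cells. The 5 measured LZ markers did not single out the LZ cells on this scale: they summed to 9734 to 9962 FPKM in KO-labelled pachytene cells, 6877 to 9434 FPKM in WT pachytene cells, 1425 to 2292 FPKM in KO-labelled LZ cells and 2467 to 2905 FPKM in WT LZ cells, and in each genotype 3 were called higher and 2 lower in pachytene cells. As a share of all FPKM they were higher in LZ cells, at 0.148% to 0.207% in KO-labelled pachytene, 0.207% to 0.228% in WT pachytene, 0.331% to 0.48% in KO-labelled LZ and 0.279% to 0.42% in WT LZ libraries. The summed FPKM of 8 round spermatid markers, none of which was at 0 in all libraries, was 1690.1 to 9319 in KO-labelled pachytene cells, against 36939 to 44835 in WT pachytene cells, and 771 to 5430 in KO-labelled LZ cells, against 14514 to 31830 in WT LZ cells. All 8 fell in KO-labelled pachytene cells and 6 of 8 in KO-labelled LZ cells, against 14.3% and 12.9% of all tested genes. With libraries rescaled so that a typical gene had equal levels in them, 8 were called lower in pachytene and 0 in LZ cells. As deposited, these spermatid markers therefore move with the genotype label beside the ADAM results that compare KO-labelled with WT cells of a stage. Their part in those results was not tested. In bulk samples, fewer cells of a type and less RNA per cell cannot be told apart.

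Promoter sequences (250 bases before to 50 bases after the gene start) were found in RefSeq, build GRCm38.p6, for 16 of the 32 members. Of these 4 are printed, because Adam1b and Adam1a are neighbours whose RNA moved apart in pachytene cells, and Adam21 and Adam34 had the lowest log2 changes there. They lie at chr5:121503386-121503685 (Adam1b), chr5:121521646-121521945 (Adam1a), chr12:81568425-81568724 (Adam21) and chr8:43665511-43665810 (Adam34), all on the minus strand. Capitals mark the MYB core AACNG on either strand, the binding core of the MYB family, to which A-MYB (Mybl1), a regulator of pachytene transcription, belongs.
Adam1b: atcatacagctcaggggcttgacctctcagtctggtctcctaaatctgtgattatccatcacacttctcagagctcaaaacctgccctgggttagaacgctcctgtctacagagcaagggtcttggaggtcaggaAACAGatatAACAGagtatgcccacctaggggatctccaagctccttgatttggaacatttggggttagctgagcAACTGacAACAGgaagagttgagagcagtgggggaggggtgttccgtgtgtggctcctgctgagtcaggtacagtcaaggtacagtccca
Adam1a: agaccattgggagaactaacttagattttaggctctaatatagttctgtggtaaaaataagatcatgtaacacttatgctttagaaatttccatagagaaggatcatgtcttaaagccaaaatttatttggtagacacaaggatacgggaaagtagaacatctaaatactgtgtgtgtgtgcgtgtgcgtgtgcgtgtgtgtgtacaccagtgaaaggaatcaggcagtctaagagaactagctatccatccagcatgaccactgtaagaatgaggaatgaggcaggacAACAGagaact
Adam21: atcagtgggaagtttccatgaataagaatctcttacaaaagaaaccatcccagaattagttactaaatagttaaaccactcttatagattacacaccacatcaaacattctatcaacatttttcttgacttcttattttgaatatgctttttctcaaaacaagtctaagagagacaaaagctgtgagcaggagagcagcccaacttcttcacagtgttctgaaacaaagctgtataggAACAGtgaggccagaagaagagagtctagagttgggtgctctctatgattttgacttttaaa
Adam34: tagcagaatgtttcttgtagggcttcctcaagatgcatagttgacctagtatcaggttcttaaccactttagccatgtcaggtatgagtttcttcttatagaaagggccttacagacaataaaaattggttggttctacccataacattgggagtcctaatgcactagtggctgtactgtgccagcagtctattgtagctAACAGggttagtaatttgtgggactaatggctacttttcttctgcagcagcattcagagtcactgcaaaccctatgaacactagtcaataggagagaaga
The Adam1b window held 4 MYB cores, and those of Adam1a, Adam21 and Adam34 held 1 each. At least 1 core was present in 14 of the 16 windows, and in 80.4% of all 27025 promoter windows of the same length. The cyclic AMP response half-site TGACG was in 1 of the 16 windows and in 21.0% of all windows, the full site TGACGTCA in 0 of 16 and 1.88%, and the CCAAT box in 9 of 16 and 37.9%. Windows of 300 bases with these letters are a description and show no binding.

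The members fall into a few very abundant and many scarce RNAs. Adam5, Adam2, Adam32 and Adam3 averaged 3599 ± 876, 2488 ± 469, 2401 ± 673 and 1952 ± 618 FPKM in KO-labelled pachytene cells, against 1676 ± 438, 1231 ± 389, 1084 ± 276 and 956 ± 348 FPKM in WT pachytene cells (SD, n = 3 each). In both groups, the means of Adam2, Adam32 and Adam3 differed from each next one in this order by less than their SD. The mean of Adam5 lay above that of Adam2 by more. Within each pachytene library, Adam5 was the highest of these genes and Adam32 lay above Adam3. Adam2 and Adam32 changed order between libraries. Adam18 came next and averaged 694 ± 268 FPKM in KO-labelled and 312 ± 109.7 FPKM in WT pachytene cells. Adam1b and Adam30 followed, and every other member averaged at most 33.1 FPKM in each group. Adam7, an epididymal gene, did not exceed 0.143 FPKM in any library.

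**Figure D1:**
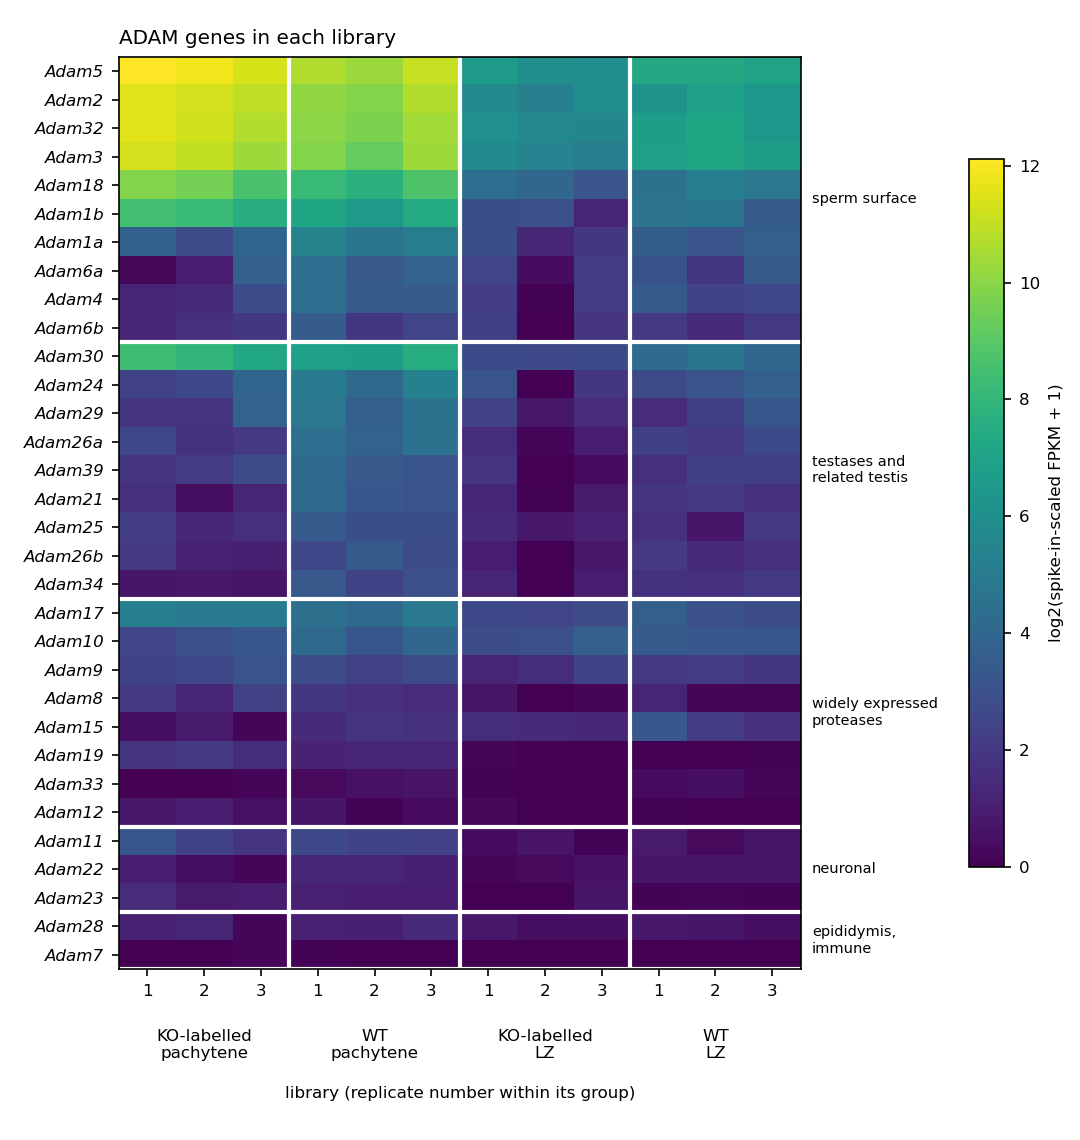
Level of each of the 32 ADAM genes (rows, grouped by role) in each of the 12 libraries (columns), as log2(spike-in-scaled FPKM + 1). Adam5, Adam2, Adam32, Adam3, Adam18, Adam1b and Adam30 are bright in pachytene libraries. Most rows of testases and related testis members are darker in KO-labelled than in WT pachytene libraries.

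A gene was tested if it reached 1 FPKM in at least 3 of the 12 libraries. This left 15400 genes and 29 members, without Adam7, Adam12 and Adam33. Adam22 reached 1 FPKM only in WT pachytene libraries, and Adam11, Adam19, Adam23 and Adam28 only in pachytene libraries. Changes are on the log2(FPKM + 1) scale, which understates the change of scarce genes, and a gene was called at a limma adjusted p under 0.05 over all tested genes. In pachytene cells, 6 members were higher with the KO label and 14 were lower, whereas 24.6% of all tested genes were called higher and 14.3% lower. The 14 include Adam22, which was tested only through its WT pachytene levels. The median log2 change was -0.68 over the 29 members and 0.37 over all genes, so changes are also given relative to 0.37.

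The abundant sperm surface members rose. Adam5, a member of the cluster with Adam18, Adam3, Adam32 and Adam9 on chromosome 8, had 4440.0, 3667 and 2691 FPKM in KO-labelled pachytene cells, against 1654, 1250.0 and 2124 FPKM in WT. The groups did not overlap, and the change was 1.11 ± 0.26 (log2 change ± SE; limma, adjusted p = 0.012). Adam32 had 3057, 2436 and 1712 FPKM in KO-labelled cells, against 1034, 837 and 1381 FPKM in WT, with no overlap and a change of 1.14 ± 0.27 (log2 change ± SE; limma, adjusted p = 0.013). Adam2, which codes for fertilin beta, a subunit of sperm complexes needed for fertilization, had 2957, 2488 and 2019 FPKM in KO-labelled cells, against 1096, 927 and 1669 FPKM in WT. It too had no overlap, with a change of 1.04 ± 0.27 (log2 change ± SE; limma, adjusted p = 0.016).

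Adam3, whose product (cyritestin) is required for sperm migration into the oviduct and binding to the egg coat, had 2529.6, 2025 and 1300.5 FPKM in KO-labelled cells, against 942, 616 and 1311 FPKM in WT. Replicate 3 of the KO-labelled group lay just below the highest WT library, so the groups overlapped, and the change was 1.04 ± 0.30 (log2 change ± SE; limma, adjusted p = 0.023). Adam18 had 924, 760.3 and 399 FPKM in KO-labelled cells, against 299, 209 and 428 FPKM in WT, with the same library overlapping and a change of 1.13 ± 0.37 (log2 change ± SE; limma, adjusted p = 0.034). Set against that general shift of 0.37, the 5 changes were 0.77 (Adam32), 0.76 (Adam18), 0.74 (Adam5), 0.67 (Adam2) and 0.67 (Adam3). Adam18, Adam3, Adam5, Adam32 and Adam9 are consecutive protein-coding genes in RefSeq, and Adam9, a widely expressed protease, changed by 0.10 (adjusted p = 0.8).

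The remaining sperm surface members went the other way or missed the threshold. Adam1a and Adam1b code for 2 forms of fertilin alpha, the partner of fertilin beta, and lie next to each other on chromosome 5. Adam1a had 12.5, 5.98 and 14.7 FPKM in KO-labelled pachytene cells, against 42.1, 24.5 and 32.7 FPKM in WT, without overlap and with a change of -1.55 ± 0.41 (log2 change ± SE; limma, adjusted p = 0.017). Adam1b had 351, 284 and 184 FPKM in KO-labelled cells, against 141, 97.0 and 167 FPKM in WT, also without overlap, but its change of 1.00 ± 0.46 (log2 change ± SE; limma, adjusted p = 0.09) missed the threshold. Within a library, where scaling plays no part, Adam1b was 28.0, 47.6 and 12.5 times Adam1a in KO-labelled pachytene cells, against 3.36, 3.97 and 5.09 times in WT. All 3 KO-labelled ratios were above all 3 WT ratios. The pair was chosen after its values were seen, so the ratio has no test. In LZ cells the ratios were 0.972, 4.73 and 0.487 with the KO label, against 2.101, 3.07 and 0.857 in WT, and they overlapped. Exons of Adam1a overlap those of Mapkapk5 on the same strand and Tmem116 on the other, and 53.8% of the shorter of the Adam1a and Adam1b transcripts aligns with the other at 87.2% identity, so the split of reads is uncertain.

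Adam4 had 1.38, 1.83 and 5.71 FPKM in KO-labelled pachytene cells, against 20.1, 9.87 and 10.2 FPKM in WT, and changed by -1.94 (adjusted p = 0.021). Adam6a had 0.213, 0.967 and 12.0 FPKM in KO-labelled cells, against 20.3, 9.33 and 12.8 FPKM in WT, with KO-labelled replicate 3 inside the WT range, and changed by -2.21 (adjusted p = 0.038). Adam6b had 1.66, 2.15 and 2.94 FPKM in KO-labelled cells, against 10.6, 2.85 and 4.81 FPKM in WT, and its change of -0.99 (adjusted p = 0.13) missed the threshold. Adam6a and Adam6b are neighbours on chromosome 12 with 93.4% identity, so reads may be shared between them. Of the 10 sperm surface members, 5 rose, 3 fell (Adam1a, Adam4, Adam6a) and 2 did not pass, with a median log2 change of 1.02. The called shares were 50% higher and 30% lower, against 24.6% and 14.3% of all tested genes.

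**Figure D2:**
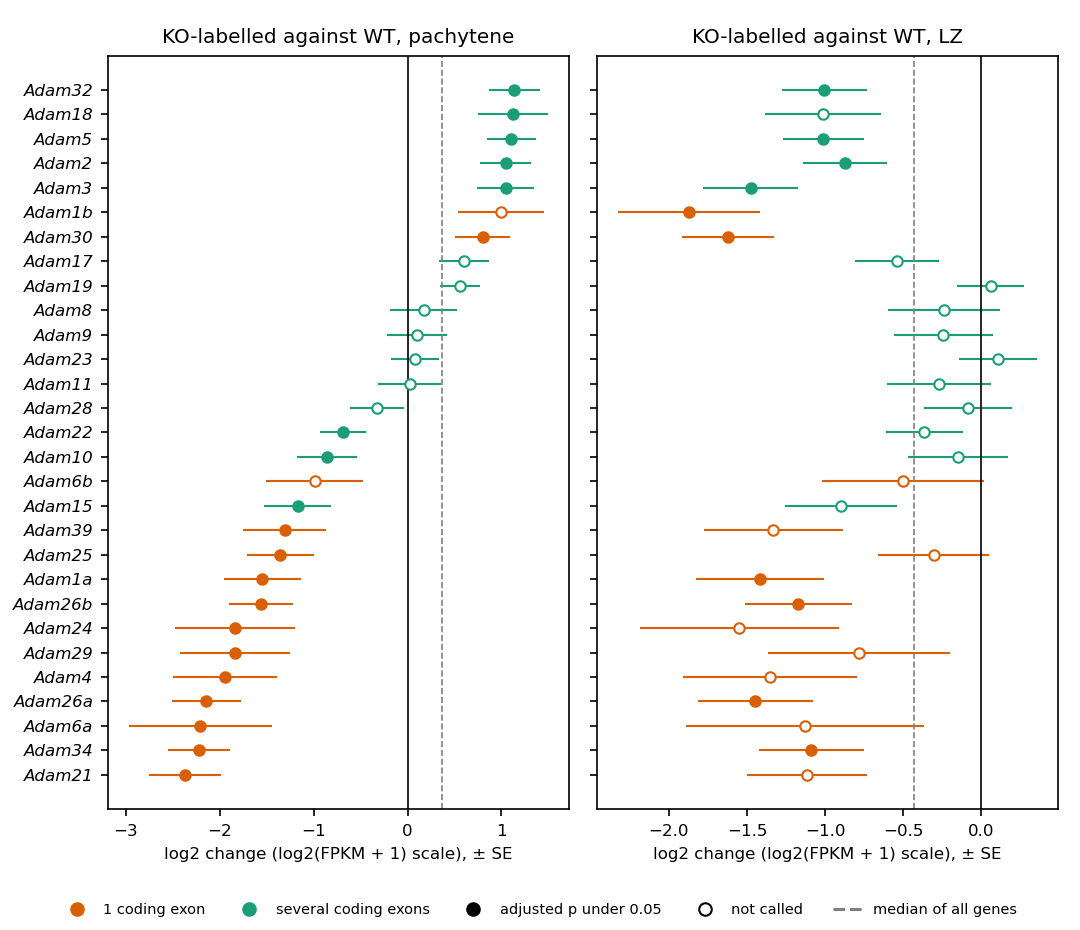
Log2 change (± SE) of each of the 29 tested ADAM genes, KO-labelled against WT, in pachytene cells (left) and LZ cells (right). Filled symbols passed adjusted p under 0.05, and the dashed line is the median of all tested genes (0.37 in pachytene cells, -0.43 in LZ cells).

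The testases and related testis members of the family mostly fell in pachytene cells: 8 of 9 were lower and 1, Adam30, was higher, with a median log2 change of -1.84. Of all tested genes, 14.3% were called lower and 24.6% higher, with a median of 0.37. Adam21 had 2.35, 0.411 and 1.38 FPKM in KO-labelled cells, against 16.9, 8.70 and 7.94 FPKM in WT, and changed by -2.37 ± 0.38 (log2 change ± SE; limma, adjusted p = 0.0025). Adam34 had 0.638, 0.725 and 0.609 FPKM in KO-labelled cells, against 9.50, 4.56 and 6.88 FPKM in WT, and changed by -2.22 ± 0.33 (log2 change ± SE; limma, adjusted p = 0.0016). In both, every KO-labelled library was below every WT library. Adam26a had 4.92, 2.43 and 3.06 FPKM in KO-labelled cells, against 20.5, 13.5 and 21.7 FPKM in WT, and changed by -2.14 ± 0.37 (log2 change ± SE; limma, adjusted p = 0.0032), again without overlap.

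Adam29 had 2.51, 2.63 and 13.3 FPKM in KO-labelled cells, against 27.3, 11.9 and 21.7 FPKM in WT. Adam24 had 4.04, 5.43 and 14.4 FPKM in KO-labelled cells, against 30.5, 17.2 and 38.6 FPKM in WT. KO-labelled replicate 3 was the highest of its group in both genes, and lay within the WT range for Adam29 but not for Adam24. Their changes were -1.84 (adjusted p = 0.029) and -1.84 (adjusted p = 0.039). The other called testases, Adam26b, Adam25 and Adam39, changed by -1.56, -1.35 and -1.31. Adam26a and Adam26b (95.1% identical), Adam34 with each of them (90.6% and 90.0%) and Adam25 and Adam39 (95.5%) are near copies, so their separate values are uncertain. Adam30, the most abundant of the testases and related testis members, had 326, 254 and 154 FPKM in KO-labelled cells, against 122, 108 and 183 FPKM in WT. These groups overlapped, and the change was 0.80 ± 0.29 (log2 change ± SE; limma, adjusted p = 0.047).

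The 14 members whose coding sequence lies in 1 exon were mostly those that fell: 1 rose and 11 fell, with a median of -1.70. The 14 comprise every testase and related testis member, and Adam1a, Adam1b, Adam4, Adam6a and Adam6b. Of the 15 tested members with several coding exons, 5 rose and 3 fell, with a median of 0.17. The 3 include Adam22, which was tested only through its WT pachytene levels. Over all 840 tested genes with 1 coding exon, 22.7% were called higher and 19.9% lower, and over the 11816 with several, 25% and 13.4%. This split of the members was chosen after their values were seen, so it has no test. The members with 1 coding exon held 4.88%, 4.73% and 4.82% of the summed ADAM value in KO-labelled pachytene libraries, against 8.84%, 7.89% and 7.03% in WT.

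Among the widely expressed proteases, 0 of 6 tested rose and 2 fell (33.3%) in pachytene cells. The shares of all tested genes were 24.6% higher and 14.3% lower. At an unadjusted p under 0.05 in limma, Adam17 and Adam19 were higher. Adam10 and Adam17 are the main sheddases, which cut many surface proteins free. Adam10 had 4.80, 6.86 and 8.74 FPKM in KO-labelled cells, against 16.4, 8.40 and 15.01 FPKM in WT, with overlapping groups and a change of -0.86 ± 0.32 (log2 change ± SE; limma, adjusted p = 0.049). Adam17 had 35.1, 31.8 and 31.7 FPKM in KO-labelled cells, against 21.1, 16.5 and 27.8 FPKM in WT, without overlap, and its change of 0.60 ± 0.27 (log2 change ± SE; limma, adjusted p = 0.085) missed the threshold. Within a library, Adam17 was 7.32, 4.63 and 3.62 times Adam10 in KO-labelled pachytene cells, against 1.28, 1.96 and 1.85 times in WT. These ratios did not overlap, and they too have no test, since the pair was chosen after its values were seen. In LZ cells the ratios were 0.813, 0.711 and 0.479 with the KO label, against 1.18, 0.817 and 0.729 in WT, and they overlapped.

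Adam15, a membrane protease with a role in adhesion, had 0.352, 0.844 and 0.177 FPKM in KO-labelled pachytene cells, against 1.83, 2.52 and 2.34 FPKM in WT, and changed by -1.17 (adjusted p = 0.026). Adam3, Adam8, Adam15, Adam17 and Adam19 each overlap a gene on the opposite strand, and strand handling in the counting is not given in the sources used here. Adam8, Adam9 and Adam19 changed by 0.17, 0.10 and 0.56, none past the threshold. Of the neuronal members, which lack protease activity, Adam22 fell by 0.68 on the log2 scale (limma, adjusted p = 0.043). It had 0.992, 0.377 and 0.158 FPKM in KO-labelled pachytene cells, against 1.63, 1.35 and 1.12 FPKM in WT. Only WT pachytene libraries reached 1 FPKM, so Adam22 entered the test through the group where it was high. Its call therefore adds no support, and it was lost after median-ratio scaling and with a replicate block. Adam11 and Adam23 had changes of 0.02 and 0.08. Adam28 had a change of -0.33 (adjusted p = 0.35).

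**Figure D3:**
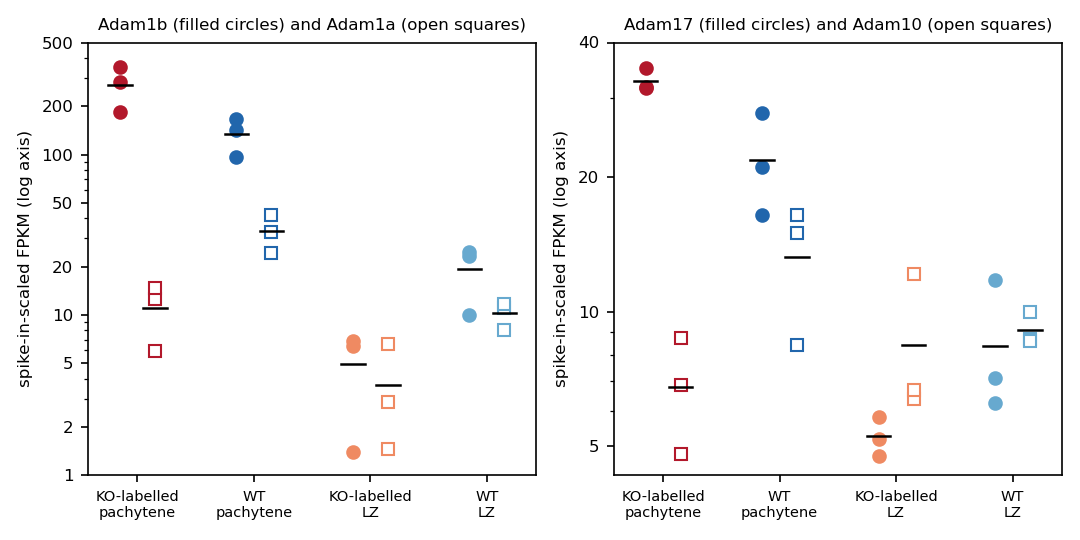
Spike-in-scaled FPKM (log axis) of Adam1b and Adam1a (left) and of Adam17 and Adam10 (right) in each library, with bars at the group means. In KO-labelled pachytene cells Adam1b is 12.5 to 47.6 times Adam1a, against 3.36 to 5.09 times in WT.

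The calls depended on single libraries and on the scaling. Leaving out 1 library gave 0 to 7 higher and 4 to 13 lower members: 0 and 7 without KO-labelled pachytene replicate 1, 1 and 4 without replicate 2, 2 and 4 without WT pachytene replicate 1, and 1 and 9 without WT pachytene replicate 2. Libraries were also rescaled so that a typical gene had equal levels in them (median-ratio scaling). Then 2 members were higher (Adam5, Adam32) and 5 lower (Adam1a, Adam10, Adam21, Adam26a, Adam34). Over all tested genes, 3784 were called higher and 2196 lower in the main fit. These became 300 and 1071 without KO-labelled pachytene replicate 1, and 370 and 978 without replicate 2. They became 933 and 1232 without WT pachytene replicate 1, 797 and 1382 without WT pachytene replicate 2, and 550 and 1482 after median-ratio scaling.

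In LZ cells, 0 members rose and 10 fell with the KO label, against 0.136% higher and 12.9% lower of all tested genes. No member was higher at an unadjusted p under 0.05 in limma (0 of 29), and 16 were lower. The median log2 change was -1.01 over the members and -0.43 over all genes. Of the 10 that fell, 6 were sperm surface members and 4 were testases or related testis members. Adam1b had 6.41, 6.89 and 1.39 FPKM in KO-labelled LZ cells, against 23.2, 24.8 and 9.96 FPKM in WT, and changed by -1.87 ± 0.46 (log2 change ± SE; limma, adjusted p = 0.024). Adam30 had 5.51, 5.44 and 5.68 FPKM in KO-labelled cells, against 18.0, 25.1 and 15.4 FPKM in WT, and changed by -1.62 ± 0.29 (log2 change ± SE; limma, adjusted p = 0.014). In both genes every KO-labelled library was below every WT library.

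Adam3 had 55.3, 40.4 and 34.0 FPKM in KO-labelled LZ cells, against 118, 139 and 105 FPKM in WT, without overlap and with a change of -1.48 ± 0.30 (log2 change ± SE; limma, adjusted p = 0.018). Adam26a, Adam1a and Adam26b changed by -1.45 (adjusted p = 0.028), -1.42 (adjusted p = 0.04) and -1.17 (adjusted p = 0.042). The other 4 called members were Adam34, Adam5, Adam32 and Adam2, with changes of -1.09, -1.01, -1.01 and -0.87. Adam17 and Adam10 had changes of -0.54 (adjusted p = 0.17) and -0.15 (adjusted p = 0.77). The count of 10 fell to 0 without WT LZ replicate 1, without WT LZ replicate 2 or without KO-labelled LZ replicate 3, to 3 without KO-labelled LZ replicate 2 and to 6 without WT LZ replicate 3. It was 1 (Adam30) after median-ratio scaling. Over all tested genes, 1992 were called lower in the main fit. These became 6 without WT LZ replicate 1, 4 without WT LZ replicate 2 and 88 without KO-labelled LZ replicate 3. They became 341 without KO-labelled LZ replicate 2, 2925 without WT LZ replicate 3 and 106 after median-ratio scaling.

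Between the stages, most members were higher in pachytene than in LZ cells, as were most genes. In KO-labelled cells 17 of the 29 members were higher and 1, Adam15, was lower, against 76.8% higher and 2.83% lower of all tested genes. In WT cells 21 were higher and 0 lower, against 80.9% and 0.487%. The higher members of both genotypes include Adam11, Adam19 and Adam23, which reached 1 FPKM only in pachytene libraries. They also include Adam8, which among LZ libraries reached it only in WT replicate 1. These genes entered the test through the stage where they were high, so their direction adds no support. At an unadjusted p under 0.05, limma gave 0 lower members in WT. The median change of all genes was 2.29 in KO-labelled and 1.64 in WT cells.

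The highest changes belonged to the same 7 genes in both genotypes. Adam2 was 53.3, 38.0 and 59.9 FPKM in KO-labelled LZ cells and 73.8, 119 and 86.8 FPKM in WT LZ cells, and its stage change was 5.61 ± 0.27 (log2 change ± SE; limma, adjusted p = 6.50e-10) in KO-labelled and 3.69 ± 0.27 (log2 change ± SE; limma, adjusted p = 8.00e-08) in WT cells. Adam5 was 96.7, 64.8 and 59.6 FPKM in KO-labelled LZ cells and 158, 158 and 125 FPKM in WT LZ cells, and its changes were 5.59 in KO-labelled and 3.48 in WT cells. Adam1b, Adam18, Adam3, Adam32 and Adam30 had changes of 5.67, 5.50, 5.44, 5.41 and 5.16 in KO-labelled cells, and of 2.81, 3.36, 2.92, 3.27 and 2.74 in WT cells. All 7 lay above the median of all genes in each genotype.

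All 9 testases and related testis members were higher in pachytene than LZ cells in WT, and 4 of 9 with the KO label, as deposited. Of all tested genes, 80.9% were called higher in WT and 76.8% with the KO label. After median-ratio scaling Adam21, Adam24, Adam26b, Adam34 and Adam39 were below 0 in WT, and Adam26a, Adam26b and Adam39 of the 4 with the KO label. With equal totals Adam25, Adam26a and Adam29 were below 0 in WT as well. Their median change was 1.65 in WT, close to the 1.64 of all genes, and 0.94 in KO-labelled cells, below the 2.29 of all genes. Adam34 had a stage change of -0.01 in KO-labelled cells and 1.12 in WT cells. Adam10 changed by -0.25 (adjusted p = 0.48) in KO-labelled and 0.45 (adjusted p = 0.2) in WT cells, and Adam17 by 2.44 (adjusted p = 9.59e-07) in KO-labelled and 1.30 (adjusted p = 5.45e-04) in WT cells. The directions of several members depended on the scaling. After median-ratio scaling 8 members were higher and 6 lower in KO-labelled cells, against 4879 and 4507 of the 15400 genes. In WT cells 7 members were higher and 4 lower, against 3149 and 2734 of these genes. Adam17 was at -0.32 in KO-labelled and -0.60 in WT cells. Adam10 was called lower in WT cells, at -1.41 after median-ratio scaling (limma, adjusted p = 0.0022) and at -1.73 with equal totals (limma, adjusted p = 0.0026). The call of Adam15 in KO-labelled cells was lost without KO-labelled LZ replicate 1 or 2 and without KO-labelled pachytene replicate 1 or 3 (count of 0), and 1 member was lower in WT cells without WT LZ replicate 3.

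**Figure D4:**
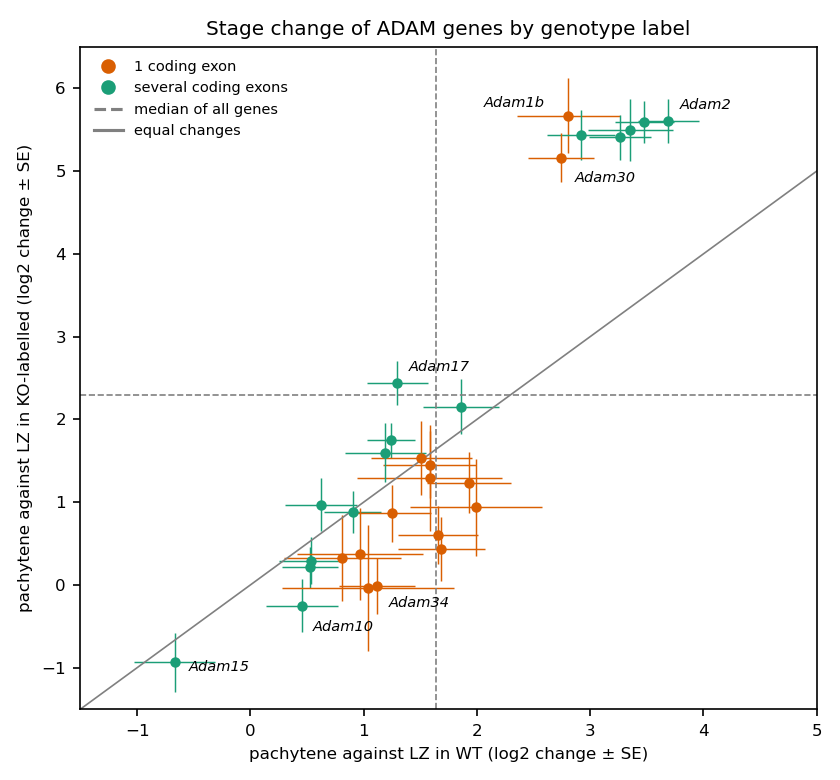
Log2 change (± SE) from LZ to pachytene of the 29 tested ADAM genes in KO-labelled cells (vertical) against WT cells (horizontal). Adam2, Adam5, Adam18, Adam32, Adam3, Adam1b and Adam30 lie above the line of equal changes, and the dashed lines are the medians of all tested genes (2.29 and 1.64).

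The KO effect differed between the stages for 8 members (27.6%), all with a higher effect in pachytene than in LZ cells. It differed for 0 members in the other direction. Of all tested genes, 34.9% were called higher and 3.49% lower. At an unadjusted p under 0.05, limma gave 2 lower members. The interaction (effect in pachytene minus effect in LZ cells, log2) was 2.87 ± 0.64 (log2 change ± SE; limma, adjusted p = 0.0073) for Adam1b and 2.52 ± 0.43 (log2 change ± SE; limma, adjusted p = 0.0049) for Adam3, and the median over all genes was 0.72. Adam30, Adam32, Adam18, Adam5 and Adam2 had interactions of 2.42, 2.14, 2.14, 2.12 and 1.91, and Adam17 had 1.14, which was -0.016 after scaling to equal totals. Without KO-labelled LZ replicate 2 the lower count was 2, and without WT pachytene replicate 2 it was 1. Of the 6 pachytene markers, 4 were called higher in the interaction (66.7%) and 0 lower, with a median of 1.70. After median-ratio scaling 1 was called higher. Of the 8 round spermatid markers 0 were called in the interaction, with a median of -0.02. The part of these marker genes in the ADAM interactions was not tested.

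Of the genes known for the maturation of sperm ADAM proteins, 14 were tested, and in pachytene cells 4 rose (28.6%, against 24.6% of all genes) and 5 fell (35.7%, against 14.3%) with the KO label. After median-ratio scaling 1 was higher (Clgn) and 3 were lower (Calr3, Prss37, Prss55). Clgn, the chaperone calmegin, had 3343, 2641 and 1804 FPKM in KO-labelled pachytene cells, against 963, 1014 and 1453 FPKM in WT, without overlap and with a change of 1.16 ± 0.27 (log2 change ± SE; limma, adjusted p = 0.012). Cmtm2a, Cmtm2b and the protease Pcsk4 rose by 1.07, 0.98 and 0.89. Prss37, a serine protease-like gene needed for Adam3 maturation, had 18.5, 8.56 and 69.1 FPKM in KO-labelled cells, against 203, 141 and 164 FPKM in WT, without overlap and with a change of -2.84 ± 0.66 (log2 change ± SE; limma, adjusted p = 0.012). Calr3 and Pdilt, a chaperone and a disulfide isomerase relative of the testis, changed by -2.38 and -1.89, and Prss55 and Ace by -1.93 and -1.66. In LZ cells 0 of the 14 rose and 4 fell: Prss55, Cmtm2b, Cmtm2a and Clgn, with changes of -1.91, -1.54, -1.26 and -0.96. The 4 are 28.6% of the list, against 12.9% of all genes called lower, and 0 of them were called after median-ratio scaling.

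Of the regulators of ADAM10 and ADAM17, 15 were tested, and in pachytene cells 2 rose and 2 fell, 13.3% each, against 24.6% higher and 14.3% lower of all genes. After median-ratio scaling 0 were higher and 1 was lower (Tspan14). Tspan33, a tetraspanin that associates with ADAM10, and Frmd8, which binds the iRhom partners of ADAM17, changed by 1.07 (adjusted p = 0.028) and 1.01 (adjusted p = 0.029). Timp3, an inhibitor of both sheddases, changed by -1.35 (adjusted p = 0.026). Tspan14, another ADAM10 partner, had 3.02, 4.41 and 4.52 FPKM in KO-labelled cells, against 11.6, 8.67 and 13.8 FPKM in WT, and changed by -1.31 (adjusted p = 0.011). In LZ cells 0 of the 15 rose and 0 fell, against 0.136% higher and 12.9% lower of all tested genes.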

How the data were processed

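Polyadenylated RNA of 12 libraries was measured by RNA-seq from amplified cDNA, per the labels' protocols. Per the submitters' processing notes, TopHat2 2.1.1, Cufflinks 2.2.1 and build mm9 were used. The deposited table holds FPKM per gene, which the authors scaled by ERCC spike-in RNA, as its name states; the formula is not given in the sources used here. Its 4 columns without a name were not used. From there, genes with at least 1 FPKM in at least 3 of 12 libraries were kept, log2(FPKM + 1) was taken, and a model with a mean for each group was fitted in limma 3.58.1 (trended variances, R 4.3.3) over all 12 libraries, with two-sided Benjamini-Hochberg adjustment over 15400 genes. The fit was tested on simulated data. Exon numbers came from GENCODE M21 and promoters from RefSeq GRCm38.p6, both of a later build than the values, so no coordinates were joined. Members and gene lists were chosen with earlier results of these data known. The rule named up to 6 called members with the highest and up to 6 with the lowest change per comparison; other members, and the pairs set against each other, were named after their values were seen. Alternatives were another pseudocount, filter, scaling or set of groups, a replicate block, and each library left out. Deviations of same-numbered libraries from their group means correlated at -0.17 to 0.080 between genotypes in pachytene cells and -0.00062 to 0.22 in LZ cells. Between stages they correlated at 0.083 to 0.26 in KO-labelled and 0.027 to 0.16 in WT cells. The correlations between stages were all above 0 but low, and replicate numbers were not taken as pairs in the main fit.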

Additional observations from a re-analysis of the deposited data

Results flagged for a closer look

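For 8 members, the KO effect in pachytene cells differed from that in LZ cells in the test of the difference itself (limma interaction, adjusted p under 0.05), and in each the effect in pachytene cells was the higher. The interactions on the log2 scale were 2.87 for Adam1b, 2.52 for Adam3, 2.42 for Adam30, 2.14 for Adam32, 2.14 for Adam18, 2.12 for Adam5, 1.91 for Adam2 and 1.14 for Adam17. The 8 are 27.6% of the tested members, a lower share than the 34.9% of all tested genes called in this direction. The median interaction was -0.13 over the members and 0.72 over all tested genes. Relative to the median of all tested genes, the interaction was 2.15 for Adam1b and 0.42 for Adam17, the highest and the lowest of the 8.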

How the results depend on the processing

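Of 1659 values of named members under an alternative, 1288 kept direction and side of the threshold, 304 lost their call, 10 gained one and 57 reversed. In KO-labelled against WT pachytene cells, the 6 higher members became 2 after median-ratio scaling, 0 with equal totals and 0 after quantile normalisation, and the 14 lower became 5, 4 and 2 under these scalings and 6 with a pseudocount of 0.1. Over all tested genes, the 3784 higher became 550, 44 and 278 under these scalings. The 2196 lower of all genes became 1482, 1740 and 693, and 1535 with a pseudocount of 0.1. In LZ cells, the 10 lower became 1 under each of the 3 scalings, 5 with a pseudocount of 5 and 2 without a filter. They became 0 when only the compared groups were fitted, as did the 1992 lower of all genes. These 1992 became 106, 113 and 127 under the 3 scalings, 1101 with a pseudocount of 5 and 901 without a filter. Between stages, the 17 higher in KO-labelled cells became 8, 8 and 9 under the 3 scalings, and the 1 lower became 6, 9 and 2, and 0 with a pseudocount of 5 or a filter at 5. For all genes, the 11830 higher became 4879, 2914 and 5120 under the 3 scalings. The 436 lower of all genes became 4507, 6344 and 4021, 355 with a pseudocount of 5 and 310 with a filter at 5. In WT cells the 21 higher became 7, 4 and 6, and the 0 lower became 4, 4 and 2. There, the 12455 higher of all genes became 3149, 2096 and 3126, and the 75 lower became 2734, 3774 and 2661. The 8 higher interactions became 4, 1 and 1, and the 0 lower became 4 with a pseudocount of 5. The 5381 higher interactions of all genes became 365, 107 and 114, and the 538 lower became 676 with a pseudocount of 5. The median log2 change of all genes moved with the scaling: in KO-labelled against WT pachytene cells it was 0.37 as deposited, 0.05 after median-ratio scaling, -0.14 with equal totals and 0.17 after quantile normalisation, and between stages in WT cells it was 1.64, -0.002, -0.25 and 0.019. The cause of the other differences was not tested.

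After median-ratio scaling, the log2 change took the opposite sign between KO-labelled and WT pachytene cells for Adam9 (-0.14), Adam8 (-0.0354), Adam11 (-0.21) and Adam23 (-0.0621), and between KO-labelled and WT LZ cells for Adam10 (0.39). It also did so between stages in KO-labelled cells for Adam17 (-0.32), Adam26a (-0.50), Adam26b (-0.42) and Adam39 (-0.0307), and between stages in WT cells for Adam17 (-0.60), Adam10 (-1.41), Adam34 (-0.53), Adam21 (-0.0143), Adam24 (-0.34), Adam26b (-0.36) and Adam39 (-0.23). With equal totals, the log2 change took the opposite sign between KO-labelled and WT pachytene cells for Adam9 (-0.33), Adam8 (-0.18), Adam11 (-0.41) and Adam23 (-0.17), and between KO-labelled and WT LZ cells for Adam17 (0.0591) and Adam10 (0.50), and between stages in KO-labelled cells for Adam17 (-0.91), Adam26a (-0.95), Adam26b (-0.80) and Adam39 (-0.29). It also did so between stages in WT cells for Adam17 (-0.89), Adam10 (-1.73), Adam34 (-0.81), Adam21 (-0.27), Adam24 (-0.62), Adam25 (-0.12), Adam26a (-0.15), Adam26b (-0.66), Adam29 (-0.0707) and Adam39 (-0.50), and in the interaction for Adam17 (-0.0156). After quantile normalisation, the log2 change took the opposite sign between KO-labelled and WT pachytene cells for Adam28 (0.00454), and between KO-labelled and WT LZ cells for Adam10 (0.52). It also did so between stages in KO-labelled cells for Adam17 (-0.0207), and between stages in WT cells for Adam17 (-0.52), Adam10 (-1.45), Adam34 (-0.36), Adam24 (-0.21), Adam26b (-0.18) and Adam39 (-0.0271). With a pseudocount of 0.1, the log2 change took the opposite sign between stages in KO-labelled cells for Adam34 (0.48). With 1 library left out, signs turned between KO-labelled and WT pachytene cells for Adam9 (log2 changes of -0.0945 to 0.22), Adam8 (log2 changes of -0.0829 to 0.49), Adam11 (log2 changes of -0.35 to 0.37) and Adam23 (log2 changes of -0.12 to 0.19), and between stages in KO-labelled cells for Adam10 (log2 changes of -0.43 to 0.0177) and Adam34 (log2 changes of -0.39 to 0.24).

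Leaving out 1 library gave 0 to 7 higher and 4 to 13 lower members in pachytene cells, 0 to 0 higher and 0 to 12 lower in LZ cells, 16 to 17 higher and 0 to 1 lower between stages in KO-labelled cells, 20 to 23 and 0 to 1 in WT cells, and 7 to 8 and 0 to 2 interactions. With the replicate block, 5 members were higher and 13 lower in pachytene cells, 0 higher and 10 lower in LZ cells, 18 higher and 1 lower between stages in KO-labelled cells, 21 higher and 0 lower in WT cells, and 8 interactions were higher and 1 lower. Read depth is unknown, so scarce members, such as testases at a few FPKM, carry no interval for counting error.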

Other observations

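The summed ADAM value was 0.202% ± 0.0208 of all FPKM in KO-labelled pachytene libraries and 0.150% ± 0.0408 in WT pachytene libraries, and 0.0620% ± 0.0196 in KO-labelled LZ libraries and 0.0825% ± 0.0112 in WT LZ libraries (SD, n = 3 each). The genotypes overlapped at both stages: the lowest KO-labelled pachytene share was 0.1787%, and the highest WT one 0.1794%. In LZ cells the highest KO-labelled share was 0.0846%, and the lowest WT one 0.0696%. The 10 sperm surface members alone averaged 0.196% in KO-labelled and 0.142% in WT pachytene libraries, so the sum mostly describes them. Of the somatic marker lists, 2 had lower sums in every KO-labelled than in every WT pachytene library, and 2 overlapped between these groups. The summed FPKM of the peritubular list was 157 to 203 in KO-labelled cells, against 511 to 676 in WT, and that of the Sertoli list was 64.3 to 88.9, against 114 to 161. The Leydig list summed to 1228 to 5323 in KO-labelled pachytene cells, against 2288 to 8615 in WT, and no LZ library exceeded 88.8. The macrophage and blood list summed to 264 to 445 in KO-labelled pachytene cells, against 97.6 to 579 in WT. The spermatogonia list summed to 10.8 to 56.9 in KO-labelled pachytene cells, against 127 to 208 in WT. Their part in the ADAM results was not tested.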
